A study of Mus musculus with 8 samples.

Results

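The 10 genes described here encode the transcription factor Nrf2 with its regulators and the thioredoxin system, together with Nqo1 and Por. They were taken by symbol from the deposited gene table: Nfe2l2, Keap1, Bach1, Mafg, Txn1, Txnrd1, Txn2, Txnrd2, Nqo1 and Por, 10 of the 17518 genes in it. All 10 passed the low-count filter and were among the 11911 genes tested. Nqo1 is at the limit of detection, and passed through 2 of the LPS+RCMNs libraries, where it had 11 and 14 counts. RNA from MH-S cells, an immortalised mouse alveolar macrophage line, was sequenced in 8 libraries. The control group (n = 3) received PBS. The LPS group (n = 2) received bacterial lipopolysaccharide, with no dose given for it. The third group (n = 3) received LPS together with RCMNs, which the series title calls ROS-responsive nanoparticles, at 100 ng/mL LPS and 1 µg/mL RCMNs. There was no group with RCMNs alone, and exposure times were not given. Every library is from the same cell line. Nothing in the labels ties replicates to separate cultures, and p-values therefore measure the spread between these libraries, which may be technical.

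Nrf2, the product of Nfe2l2, is held in the cytosol and marked for degradation by Keap1 until electrophiles or oxidants modify Keap1 cysteines. Nrf2 then pairs with a small Maf protein such as Mafg on antioxidant response elements, where the haem-regulated repressor Bach1 competes for the same sites. Much of this control acts on protein stability, which RNA does not measure. Thioredoxin reduces disulphides in peroxiredoxins, ribonucleotide reductase and other proteins, and thioredoxin reductase restores it with NADPH, in the cytosol (Txn1, Txnrd1) and, through separate genes, in mitochondria (Txn2, Txnrd2). In macrophages these systems limit the damage done by the oxidants that the cells themselves release.

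The libraries held 18.6 to 21.2 M estimated counts. Of the 8 macrophage markers, 7 were detected in every library, and their summed level was 4563 to 7548 CPM (the usual library-scaled count, here with TMM factors). Marco, a scavenger receptor of alveolar macrophages, was the marker missing from some libraries. In the LPS libraries, 7 erythroid markers summed to 4359 and 5623 CPM, against 0.658 to 34.1 CPM elsewhere, and 6 neutrophil markers to 5.09 and 5.33 CPM against at most 0.709 CPM. Ly6g was at 0 in both LPS libraries. The lymphocyte, epithelial, and fibroblast and endothelial lists stayed at or below 0.788, 0.484 and 2.6 CPM in every library. The source of these erythroid and neutrophil transcripts, and their part in the LPS results, were not tested. Within their groups, the libraries control replicate 1 and LPS+RCMNs replicate 2 were the most distant. The standard deviation of log2 differences was 0.54 and 0.53 between control replicate 1 and the other controls, against 0.28 between those. It was 0.52 and 0.49 for LPS+RCMNs replicate 2, against 0.27 between the other LPS+RCMNs libraries. In bulk RNA, fewer expressing cells and less RNA per cell cannot be told apart.

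The promoters are shown first because several of the genes belong to the circuit that Nrf2 itself reads. RefSeq start-site windows (GRCm38.p6, from 250 bases before to 50 bases after each start) were matched for all 10 genes, in 12 windows, 3 of them for Txnrd1. The core antioxidant response element was searched as TGACNNNGC on both strands. It occurred in 3 of the 12 windows and in 3 of the 10 genes. Of all 32851 windows 12.4% held it, and of all 27025 genes 14.0%. The AP-1 site TGAGTCA was in none of the 12 windows and in 5.20% of all windows. The stretches with the core element are printed on the strand of the gene, with the element in capitals.
Nfe2l2: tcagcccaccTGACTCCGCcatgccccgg
Mafg: ctctgcaggaGCACGGTCAacccggcgag
Txnrd1: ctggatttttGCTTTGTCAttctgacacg
The Nfe2l2 stretch is at chr2:75704885-75704913 on the minus strand, upstream of the gene, where the GENCODE annotation places an exon of the transcript E030042O20Rik. The Mafg stretch is at chr11:120633751-120633779 on the minus strand, before the start site used here. It lies inside the RefSeq span of Mafg and within a GENCODE exon of Gm17586, and the element reads on the opposite strand. The Txnrd1 stretch is at chr10:82859104-82859132 on the plus strand, before the second of its 3 start sites. It lies inside the span of the gene and in no annotated exon, again with the element on the opposite strand. A match of these letters is a description and does not show binding. Sequence beyond these windows was not searched, so a gene without a match here may hold the element elsewhere.

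Levels of different genes were compared as FPKM, which divides by gene length. In control cells Txn1 was highest at 172 ± 10.9 FPKM (SD, n = 3), followed by Txnrd1 at 122 ± 26.5, Txn2 at 106 ± 8.72, Nfe2l2 at 90.7 ± 2.54 and Por at 85.3 ± 13.1. The ranges of Txnrd1 and Txn2 overlapped, as did those of Nfe2l2 and Por. Mafg followed at 32.6 ± 2.81 FPKM, Keap1 at 23.5 ± 1.52, Txnrd2 at 17.6 ± 2.36 and Bach1 at 10.6 ± 2.28, with no overlap between these neighbours. Nqo1 was last at 0.0667 ± 0.0907 FPKM. The message of the activator Nfe2l2 was thus several times more abundant than that of its inhibitor Keap1 or its competitor Bach1.

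The order differed in the treated groups. With LPS, Txn1 at 400.1 ± 52.4 FPKM (SD, n = 2) and Txn2 at 175 ± 10.7 led, Txnrd1 followed at 141 ± 5.95, and Por was at 96.6 ± 7.49. Nfe2l2 was at 45.4 ± 7.50 FPKM and Bach1 at 2.83 ± 0.134. With LPS+RCMNs, 3 genes shared the top with overlapping ranges: Txn1 at 178 ± 11.1 FPKM (SD, n = 3), Por at 172 ± 11.4 and Txnrd1 at 169 ± 6.01. Por ranked 5 of 10 in the controls and 2 of 10 here.

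**Figure D1:**
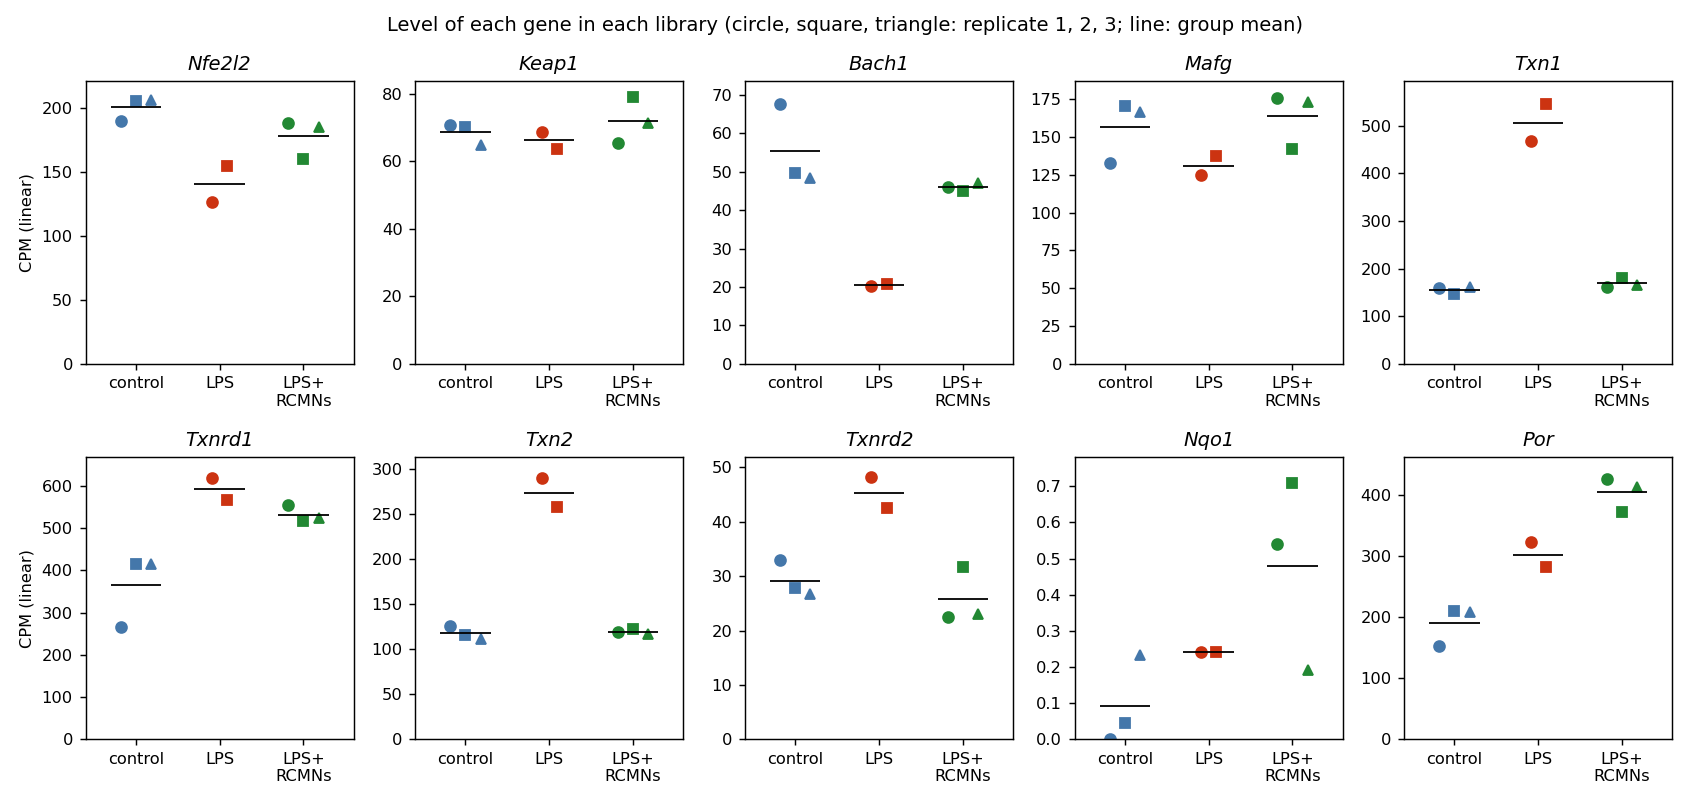
Level of each of the 10 genes in each library, in TMM-scaled CPM on linear axes from 0, with symbols for replicates and a line at the group mean. Txn1 and Txn2 stand high in the LPS libraries alone, Bach1 is lowest there, and Por climbs from control through LPS to LPS+RCMNs.

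A gene is called below where the adjusted p of edgeR's quasi-likelihood test, over all genes tested, was under 0.05. Between LPS and control 63.4% of tested genes were called, 31.4% higher and 32.1% lower. Of the 10 genes, 5 were called higher (Txn1, Txn2, Txnrd1, Txnrd2, Por), 2 lower (Nfe2l2, Bach1) and 3 were not called, 7 of 10 in all, a share near that background. Their median log2 fold change was 0.65, against -0.04 over all genes tested. Between LPS+RCMNs and LPS, where 59.3% of genes were called (29.8% higher, 29.5% lower), 3 of the 10 were called higher (Nfe2l2, Bach1, Por), 3 lower (Txn1, Txn2, Txnrd2) and 4 not. Between LPS+RCMNs and control 7.56% of genes were called (4.33% higher, 3.23% lower), and of the 10 only Por was. The 3 comparisons share their libraries in pairs and are not independent of each other. In CPM, groups did not overlap for 8 of the 10 genes in LPS versus control, where 76.1% of all genes did not; Nqo1 is one of the 8, at a level near 0. The same held for 8 of 10 in LPS+RCMNs versus LPS (74.9% of all genes) and for 5 of 10 in LPS+RCMNs versus control (29.8%).

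**Figure D2:**
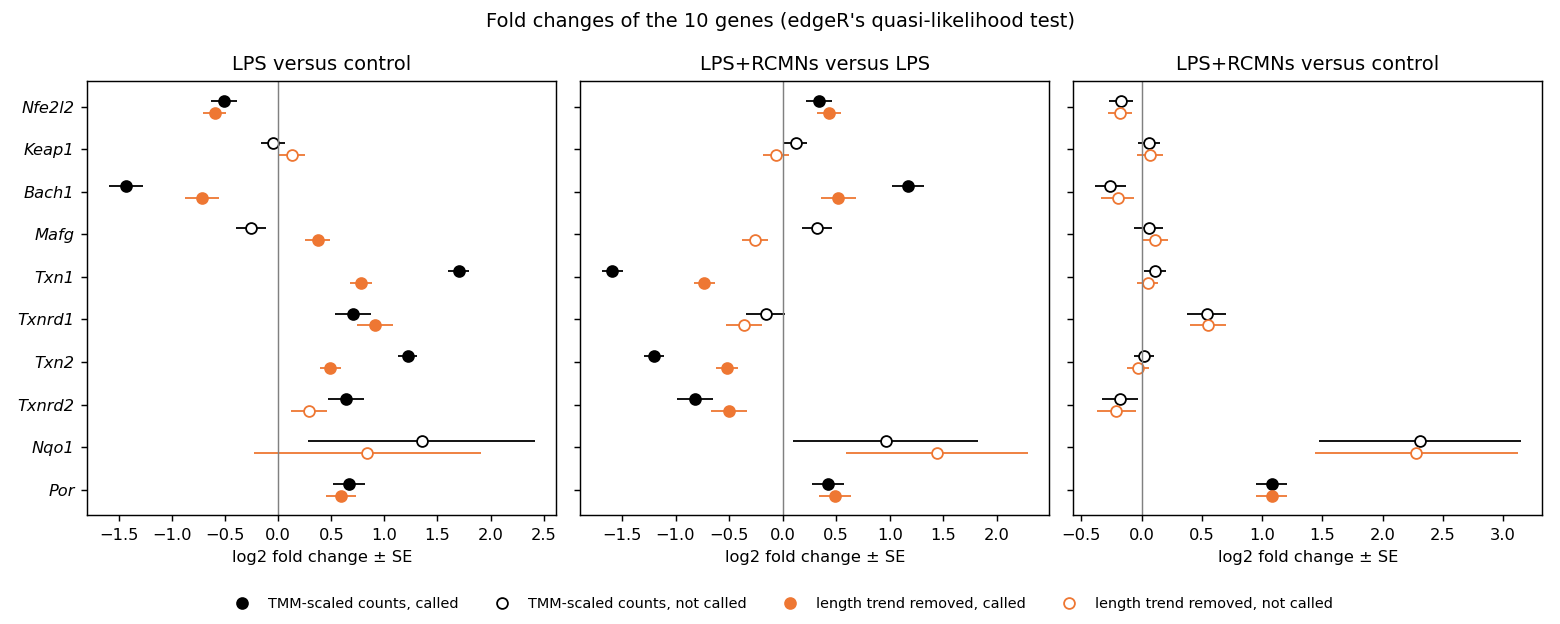
Log2 fold change with its standard error for each gene in the 3 comparisons, from TMM-scaled counts (black) and after removal of each library's trend on gene length (orange); filled points were called at an adjusted p under 0.05. In LPS+RCMNs versus control, Por at 1.08 is the gene called in both fits.

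LPS libraries differed from the rest by gene length, and this touches each comparison that includes them. The log2 fold change of LPS versus control was lower the longer the gene, with length taken from the ratio of count to FPKM and a Spearman correlation of -0.58 across 11911 genes, which are not independent replicates. Relative to the control mean, the median gene of the shortest 10% was 1.22 and 1.24 higher (log2) in the LPS libraries, and that of the longest 10% was -1.03 and -0.93. For LPS+RCMNs versus control the correlation was -0.09. Txn1 (1002 bp, longer than 7.69% of tested genes) and Txn2 (1233 bp, 12.1%) are short, while Mafg (5009 bp, 82.7%) and Bach1 (5797 bp, 88.0%) are long. Fits were therefore repeated with a smooth trend on length removed per library, and with a trend on length and level removed. With the length trend removed, 45.7% of all genes were called between LPS and control (23.7% higher, 22.0% lower), 5 of the 10 higher and 2 lower. The 5 were not the same: Txnrd2 (0.29) was no longer called, and Mafg (0.37) was. Between LPS+RCMNs and LPS 40.5% were called (19.0% higher, 21.5% lower), 3 of the 10 higher and 3 lower, and the median of the 10 turned from 0.22 to -0.16. Against control, LPS+RCMNs gave 7.51% (4.30% higher, 3.21% lower) and 1 of the 10. With length and level removed, 42.7% of genes were called between LPS and control and 38.7% between LPS+RCMNs and LPS. The labels give no batch, and in the LPS libraries treatment and library preparation cannot be told apart.

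**Figure D3:**
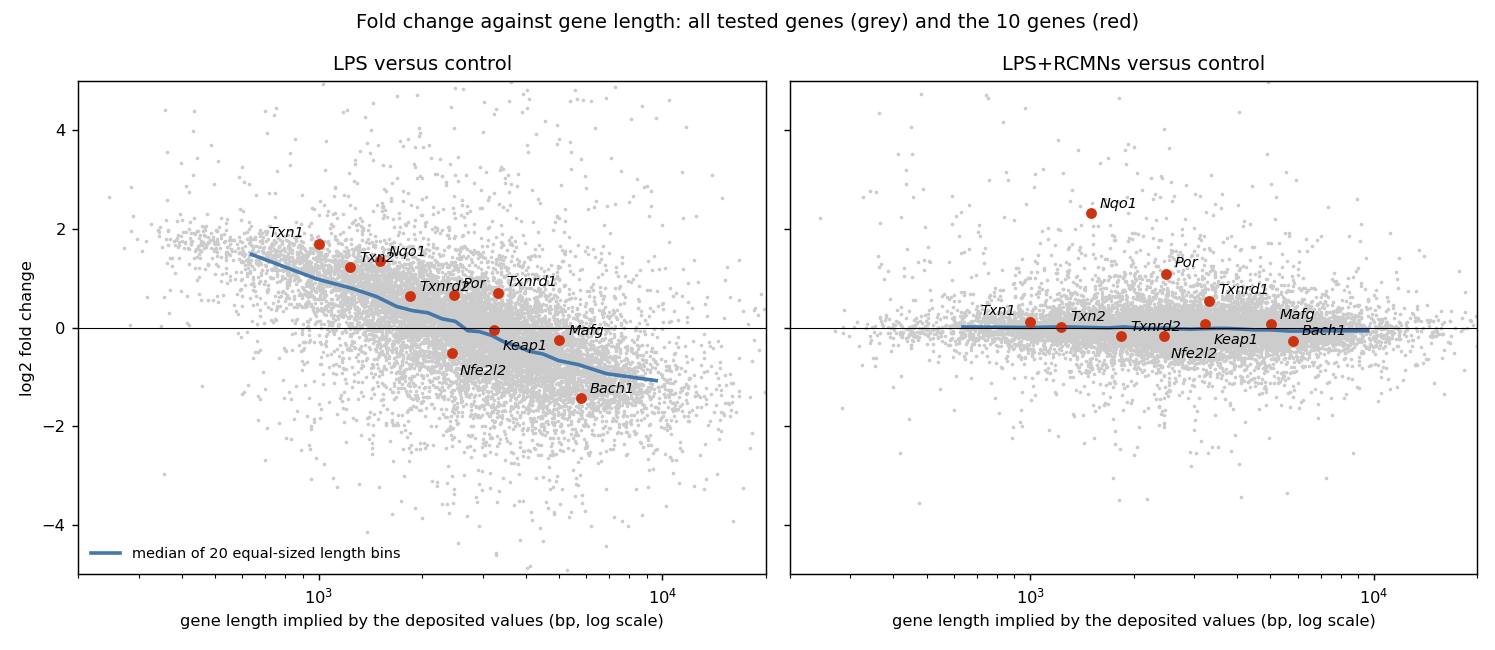
Log2 fold change against gene length for all tested genes (grey), their median in 20 equal-sized length bins (blue line) and the 10 genes (red), for LPS versus control (left) and LPS+RCMNs versus control (right). The left trend slopes down and Txn1, Txn2, Por, Mafg and Txnrd1 lie above it while Nfe2l2 and Bach1 lie below; the right trend is nearly flat and Por lies above it.

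Nfe2l2 (chr2:75675513-75704663, GRCm38.p6, as are the other gene positions), which encodes Nrf2, was lower in LPS cells. It had 189.6, 205 and 207 CPM in the controls, 126 and 155 CPM with LPS, and 188, 160.1 and 185 CPM with LPS+RCMNs. Both LPS libraries lay below every other library. The log2 fold change of LPS versus control was -0.51 ± 0.12 (SE; adjusted p = 0.00426), and -0.60 ± 0.11 (adjusted p = 0.00227) with the length trend removed. With length and level removed it was -0.84 ± 0.13 (adjusted p = 0.0011), and in FPKM -0.99 (adjusted p = 0.00011). It was not called without LPS replicate 1 (-0.33, adjusted p = 0.0658). Against LPS alone, Nfe2l2 was 0.34 ± 0.12 higher on the log2 scale with LPS+RCMNs (adjusted p = 0.0323). The value was 0.43 ± 0.11 with the length trend removed (adjusted p = 0.0145), 0.59 ± 0.13 with length and level removed (adjusted p = 0.00706) and 0.75 in FPKM (adjusted p = 0.000592). The call did not hold without control replicate 2 or 3, LPS replicate 1, or LPS+RCMNs replicate 1 or 3, where the value was 0.18 to 0.32 and the adjusted p 0.0614 to 0.277. LPS+RCMNs and control differed by -0.17 ± 0.10 (adjusted p = 0.365), not called although all 3 LPS+RCMNs libraries were below the lowest control.

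Keap1 (chr9:21229730-21239332), the adaptor that presents Nrf2 to a Cul3 ubiquitin ligase, was not called in any comparison. Its CPM values were 70.8, 70.3 and 64.9 in the controls, 68.7 and 63.6 with LPS, and 65.3, 79.0 and 71.2 with LPS+RCMNs. The groups overlapped throughout. The log2 differences were -0.05 ± 0.11 for LPS versus control (adjusted p = 0.673), 0.12 ± 0.11 for LPS+RCMNs versus LPS (adjusted p = 0.357) and 0.06 ± 0.09 for LPS+RCMNs versus control (adjusted p = 0.734). With the length trend removed, LPS versus control was 0.13 ± 0.12 and LPS+RCMNs versus LPS -0.06 ± 0.12, and with length and level removed 0.07 ± 0.10 and -0.03 ± 0.10, none of them called. In FPKM, which carries no TMM scaling and where limma called 67.5% of genes between LPS and control, Keap1 was called lower with LPS (-0.49, adjusted p = 0.0043) and higher with LPS+RCMNs than with LPS (0.49, adjusted p = 0.00499). An antisense gene, Gm16754, shares 510 bp of Keap1 exon, and no source here gives the strand setting of the counting.

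Bach1 (chr16:87698954-87733346), the repressor at Nrf2 sites, had the largest fall with LPS among the 10 genes, except with length and level removed, where Nfe2l2 at -0.84 fell further. Its CPM was 67.7, 49.7 and 48.4 in the controls, 20.2 and 20.7 with LPS, and 46.1, 45.0 and 47.1 with LPS+RCMNs. The LPS libraries were well below all others, and the LPS+RCMNs libraries lay close together, just under the controls. The log2 fold change of LPS versus control was -1.44 ± 0.16 (adjusted p = 4.63e-05). With the length trend removed it was -0.72 ± 0.16 (adjusted p = 0.00553), and with length and level removed -0.56 ± 0.15 (adjusted p = 0.0138). Bach1 rose by 1.17 ± 0.15 from LPS to LPS+RCMNs (adjusted p = 0.000178), or 0.52 ± 0.16 with the length trend removed (adjusted p = 0.0277). After removal of length and level that increase was 0.37 ± 0.15 and not called (adjusted p = 0.0731). Against control, LPS+RCMNs gave -0.26 ± 0.13 (adjusted p = 0.266).

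Mafg (chr11:120625117-120634955), a small Maf partner of both Nrf2 and Bach1, gave an unsettled result. It had 133, 170.3 and 166 CPM in the controls, 125 and 137 CPM with LPS, and 176, 142 and 173 CPM with LPS+RCMNs. Control replicate 1 was near the LPS libraries and overlapped them. LPS versus control was -0.26 ± 0.14 (adjusted p = 0.133), and it turned to 0.37 ± 0.12 (adjusted p = 0.0284) with the length trend removed. It was called lower, at -0.31, without control replicate 1 (adjusted p = 0.0439), and at -0.46 in FPKM (adjusted p = 0.00305). Against LPS alone, LPS+RCMNs gave 0.32 ± 0.14 (adjusted p = 0.0722), and -0.26 ± 0.12 (adjusted p = 0.11) with the length trend removed. That difference was called higher without control replicate 1 (0.30, adjusted p = 0.0379) or LPS+RCMNs replicate 2 (0.39, adjusted p = 0.025). Against control it was 0.06 ± 0.12 (adjusted p = 0.807). The length behind the deposited Mafg FPKM itself varied, from 5120 to 5414 bp in the controls to 4248 and 4601 bp with LPS. Mafg also shares 124 bp of exon with Sirt7 on the same strand.

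Txn1 (chr4:57943373-57956411), cytosolic thioredoxin, gave the largest change with LPS among the 10 genes in scaled counts. After removal of the length trend Txnrd1 at 0.91 was above Txn1 at 0.78, and in FPKM Bach1 at -1.58 was larger in size than Txn1 at 1.20. Of the genes called with length and level removed, Nfe2l2 (-0.84), Txnrd1 (0.56) and Bach1 (-0.56) changed more than Txn1 (0.48). Txn1 had 159.7, 147 and 161 CPM in the controls, 467 and 546 CPM with LPS, and 161, 179.9 and 165 CPM with LPS+RCMNs. Both LPS libraries were far above the other 6. The log2 fold change of LPS versus control was 1.70 ± 0.10 (adjusted p = 2.09e-06), a 3.25-fold rise. It was 0.78 ± 0.10 with the length trend removed (adjusted p = 0.000305) and 0.48 ± 0.09 with length and level removed (adjusted p = 0.00352). Txn1 fell by 1.59 ± 0.10 on the log2 scale from LPS to LPS+RCMNs (adjusted p = 3.49e-06), or by 0.73 ± 0.10 with the length trend removed (adjusted p = 0.000539). Relative to control, LPS+RCMNs gave 0.11 ± 0.09 (adjusted p = 0.513).

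Txnrd1 (chr10:82833951-82897724), the selenoenzyme that reduces Txn1 and a textbook Nrf2 target, was higher in both treated groups than in any control. It had 265, 414 and 414 CPM in the controls, 619 and 566 CPM with LPS, and 554, 517 and 522 CPM with LPS+RCMNs. Control replicate 1 was far below the other controls. LPS versus control was 0.70 ± 0.17 (adjusted p = 0.00625), and 0.91 ± 0.17 (adjusted p = 0.00208) with the length trend removed, or 0.56 ± 0.14 (adjusted p = 0.0114) with length and level removed. In FPKM, without TMM scaling, it was 0.24 and not called (adjusted p = 0.231). The difference of LPS+RCMNs from control was 0.54 ± 0.16, a 1.46-fold difference that was not called (adjusted p = 0.0731). Without control replicate 1 it was smaller but called, at 0.39 ± 0.08 (adjusted p = 0.0219), and without both libraries that stood apart it was 0.41 ± 0.07 (adjusted p = 0.00153). From LPS to LPS+RCMNs it was -0.16 ± 0.18 (adjusted p = 0.462), and -0.36 ± 0.17 (adjusted p = 0.118) with the length trend removed. It was called without both libraries that stood apart (-0.16, adjusted p = 0.0464), and it was 0.26 in FPKM (adjusted p = 0.207). Side by side, the thioredoxin message fell from LPS to LPS+RCMNs and a fall of its reductase did not pass the test on all libraries, but the difference between these changes was not tested.

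Txn2 (chr15:77915051-77928994), mitochondrial thioredoxin, moved in the same directions as Txn1. It had 126, 116 and 111 CPM in the controls, 289 and 257 CPM with LPS, and 119, 122 and 117 CPM with LPS+RCMNs. The LPS libraries were above all others, and the other groups overlapped. LPS versus control was 1.22 ± 0.09 (adjusted p = 6.68e-06), 0.49 ± 0.10 with the length trend removed (adjusted p = 0.00354), and 0.22 ± 0.09 and not called with length and level removed (adjusted p = 0.0693). From LPS to LPS+RCMNs the change was -1.20 ± 0.09 (adjusted p = 9.42e-06), or -0.52 ± 0.10 with the length trend removed (adjusted p = 0.00301). For LPS+RCMNs versus control it was 0.02 ± 0.08 (adjusted p = 0.918).

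Txnrd2 (chr16:18426417-18479073), the mitochondrial reductase, had 32.9, 27.8 and 26.8 CPM in the controls, 48.2 and 42.5 CPM with LPS, and 22.4, 31.7 and 23.0 CPM with LPS+RCMNs. The LPS libraries were highest, and LPS+RCMNs replicate 2 lay among the controls while the other LPS+RCMNs libraries lay below them. LPS versus control was 0.64 ± 0.17 (adjusted p = 0.00841). The call was lost with the length trend removed (0.29 ± 0.17, adjusted p = 0.193), with length and level removed (0.25 ± 0.15, adjusted p = 0.216), in FPKM (0.14, adjusted p = 0.473) and without LPS replicate 1 (0.58, adjusted p = 0.0632). Txnrd2 fell by 0.82 ± 0.17 on the log2 scale from LPS to LPS+RCMNs (adjusted p = 0.0024), and by 0.50 ± 0.17 with the length trend removed (adjusted p = 0.0444). The fall was 0.39 and not called in FPKM (adjusted p = 0.0691). For LPS+RCMNs versus control the difference was -0.18 ± 0.15 (adjusted p = 0.531).

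Nqo1 (chr8:107388225-107403205), a quinone reductase widely used as a marker of Nrf2 activity, was barely detected. It had 0, 1 and 5 counts in the controls, 4 and 4 with LPS, and 11, 14 and 4 with LPS+RCMNs, where 3 counts correspond to 0.130 to 0.182 CPM. The group totals were 6, 8 and 29 counts, and LPS+RCMNs replicate 3 was within the range of the controls. The difference between LPS+RCMNs and control was fitted at 2.31 ± 0.84 on the log2 scale (adjusted p = 0.14). LPS versus control was fitted at 1.35 ± 1.07 (adjusted p = 0.295) and LPS+RCMNs versus LPS at 0.96 ± 0.86 (adjusted p = 0.36). At this depth no difference in Nqo1 was detectable, and the fitted values depend on the small prior count that edgeR adds.

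Por (chr5:135670040-135735326), cytochrome P450 oxidoreductase, passes electrons from NADPH to microsomal P450 enzymes and to haem oxygenase. It was the one gene of the 10 called in all 3 comparisons. It had 153, 210.1 and 209.6 CPM in the controls, 324 and 282 CPM with LPS, and 428, 373 and 414 CPM with LPS+RCMNs. No group overlapped another, and levels stepped up in that order. The log2 fold change of LPS+RCMNs versus control was 1.08 ± 0.13 on the log2 scale (adjusted p = 0.00208), a 2.12-fold rise, with rank 99 by p among the 11911 genes tested. It was called under each of the 20 alternatives tried, at 0.98 to 1.18, and the length trend did not move it (1.08 ± 0.13). LPS versus control was 0.67 ± 0.15 (adjusted p = 0.00317), 0.59 ± 0.14 with the length trend removed (adjusted p = 0.00867), and 0.28 ± 0.13 and not called with length and level removed (adjusted p = 0.108). In FPKM, without TMM scaling, it was 0.19 and not called (adjusted p = 0.24). From LPS to LPS+RCMNs the change was 0.42 ± 0.15 (adjusted p = 0.0355). It was 0.49 ± 0.15 with the length trend removed (adjusted p = 0.0255), 0.71 ± 0.13 with length and level removed (adjusted p = 0.00297) and 0.83 in FPKM (adjusted p = 0.000802). That call did not hold without control replicate 3, LPS replicate 1 or 2, or LPS+RCMNs replicate 1 or 3, where the value was 0.29 to 0.51 and the adjusted p 0.0503 to 0.245.

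Ratios within a library set partners side by side without any scaling between libraries. The smallest two-sided p of an exact permutation test is 0.1 for 3 libraries against 3 and 0.2 for 2 against 3, so these are descriptions. The FPKM ratio of Nfe2l2 to Bach1 was 6.66, 9.82 and 10.1 in the controls, 14.7 and 17.4 with LPS, and 9.62, 8.46 and 9.25 with LPS+RCMNs. Its LPS values were the highest, but with the length trend removed they were 9.69 and 12, in and just above the control range of 7.64 to 11.8. The ratio of Nfe2l2 to Keap1 was 3.53, 3.86 and 4.23 in the controls, 2.38 and 3.19 with LPS, and 3.86, 2.63 and 3.44 with LPS+RCMNs. It was below every control in both LPS libraries, also with the length trend removed (2.10 and 2.79 against 3.66 to 4.43). LPS+RCMNs replicates 2 and 3 were below every control too, and stayed so with the length trend removed (2.77 and 3.58).

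For the thioredoxins, the ratio of cytosolic Txn1 to mitochondrial Txn2 was 1.56, 1.56 and 1.78 in the controls, 1.99 and 2.61 with LPS, and 1.67, 1.82 and 1.73 with LPS+RCMNs. With the length trend removed, the LPS values of 1.81 and 2.37 overlapped the controls (1.61 to 1.85). For the reductases, the ratio of Txnrd1 to Txnrd2 was 4.48, 8.30 and 8.57 in the controls, 7.17 and 7.42 with LPS, and 13.7, 9.07 and 12.6 with LPS+RCMNs. All 3 LPS+RCMNs libraries were above all controls, and control replicate 1 and LPS+RCMNs replicate 2 were the lowest of their groups. With the length trend removed, the values with LPS were 9.44 and 9.71 and those with LPS+RCMNs 8.50 to 12.5, against 4.11 to 7.68 in the controls.

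Of 12 other genes that act on Nrf2, 3 were called higher with LPS than in control, 2 lower and 7 not, with a median of 0.01; the 5 of 12 called stand against 63.4% of all genes. With the length trend removed 4 were called higher and the other 8 were not called (median 0.18), where 23.7% of all genes were higher and 22.0% lower. Rbx1 and Sqstm1 were called higher in both fits, while Cul3 (0.34) and Btrc (0.86) were called only with the length trend removed. In FPKM 3 were higher and 6 lower (median -0.34), where 67.5% of all genes were called in either direction. Sqstm1, the autophagy receptor that binds Keap1, rose most, by 1.95 ± 0.13 (adjusted p = 3.91e-06), from 233 to 253 CPM in the controls to 1032 and 813 CPM. Park7, an oxidant-sensing protein, rose by 1.32 ± 0.14 (0.24 and not called with the length trend removed, adjusted p = 0.204). Gsk3b, a kinase that marks Nrf2 for another ubiquitin ligase, fell by 0.89 ± 0.12 (by 0.07 and not called with the length trend removed, adjusted p = 0.642). Against control, LPS+RCMNs gave a call for Sqstm1, at 0.48 ± 0.12 (adjusted p = 0.0438), and the other 11 were not called. That call was lost with the length trend removed (0.45, adjusted p = 0.0534) and without control replicate 2 or 3 or LPS+RCMNs replicate 1 or 3. Against LPS alone, 3 were called higher and 3 lower (median 0.10), where 29.8% of all genes were higher and 29.5% lower. With the length trend removed 1 was higher and 3 lower (median -0.12), where 19.0% of all genes were higher and 21.5% lower. The counts and the median were the same with length and level removed, where 38.7% of all genes were called in either direction. In FPKM, where calls over all genes leaned higher, 6 were higher and 3 lower (median 0.28).

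Known Nrf2 target genes outside the 10 were mostly higher in both treated groups than in control. Of 25 listed, 23 were tested; Gpx2 and Gsta4 were not. In LPS versus control 19 were called higher and 1 lower, with a median log2 fold change of 0.83, where 31.4% of all genes were called higher. The counts were 16 and 1 with the length trend removed, where 23.7% of all genes were higher and 22.0% lower. They were 11 and 2 with length and level removed (median 0.38), where 42.7% of all genes were called in either direction. In FPKM they were 12 and 3 (median 0.34), where 67.5% of all genes were called. With LPS+RCMNs 15 were called higher than in control and the other 8 were not called, with a median of 0.54 against -0.02 over all genes, where 4.33% of all genes were called higher. The number called was 13 with the length trend removed, 5 with a log2 fold minimum of 1, 9 without LPS+RCMNs replicate 1 and also without replicate 3, and 18 without both libraries that stood apart. Calls over all genes, in either direction, moved as well, from 901 on all libraries to 3017 without both libraries that stood apart. They were 314 with the fold minimum and 322 without LPS+RCMNs replicate 3. The list was drawn up with results of these libraries known, so it is not independent evidence of the direction. Between LPS+RCMNs and LPS 2 were called higher and 11 lower (median -0.31), where 29.5% of all genes were called lower. The balance was 2 higher and 3 lower with the length trend removed, where 19.0% of all genes were higher and 21.5% lower. It was 5 higher and 3 lower with length and level removed (median 0.07), where 38.7% of all genes were called in either direction. In FPKM, where calls over all genes leaned higher, it was 7 and 5 (median 0.11).

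Hmox1, which degrades haem with electrons from Por, had 83.7, 172 and 153 CPM in the controls, 414 and 416 CPM with LPS, and 818, 219 and 658 CPM with LPS+RCMNs. LPS+RCMNs replicate 2 was far below its group, and the log2 fold change against control was 2.05 ± 0.44 (adjusted p = 0.0237). Gsr, glutathione reductase, had 102, 106 and 104 CPM in the controls, 188 and 192 CPM with LPS, and 269, 286 and 263 CPM with LPS+RCMNs. The groups were tight and stepped upward, with 1.39 ± 0.08 for LPS+RCMNs versus control (adjusted p = 2.26e-05). Among targets with a mean of at least 5 FPKM, Esd, an esterase, rose most with LPS, by 2.14 ± 0.10 (adjusted p = 8.83e-07), or 1.42 with the length trend removed. Blvrb, a biliverdin reductase, rose by 1.88 ± 0.12 (adjusted p = 2.68e-06), or 0.75 with the length trend removed. Slc7a11, the cystine transporter, lies under that level at 4.63 FPKM and rose by 2.26 ± 0.39 (adjusted p = 0.000785), or 3.12 with the length trend removed; it is named here after its values were seen. Ephx1, a microsomal epoxide hydrolase, fell by 1.93 ± 0.25 (adjusted p = 0.00014). Its CPM was 16.4 to 24.1 in the controls, 6.48 and 3.88 with LPS, and 14.4 to 16.7 with LPS+RCMNs.

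**Figure D4:**
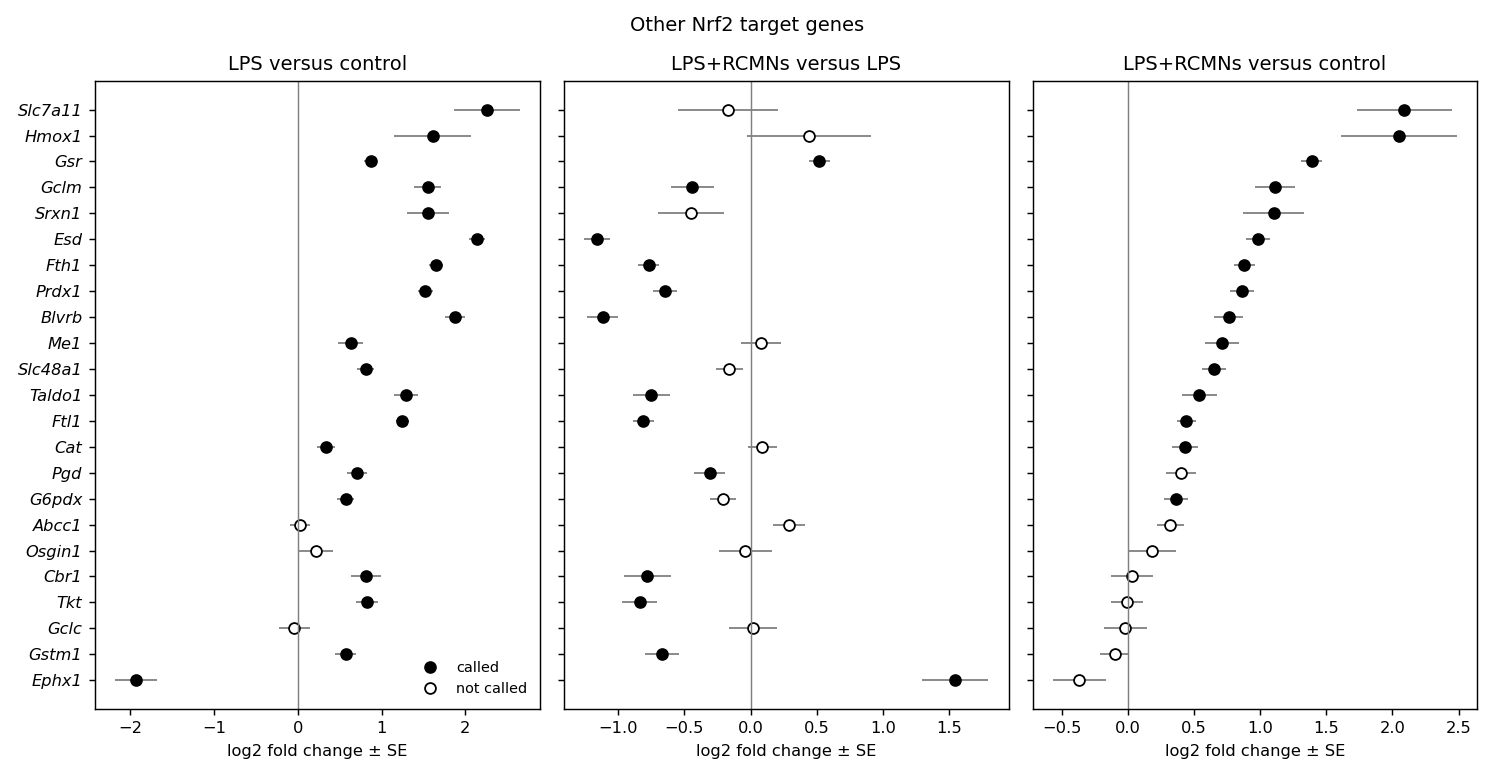
Log2 fold change with its standard error of the 23 tested Nrf2 target genes outside the 10, in the 3 comparisons, ordered by LPS+RCMNs versus control; filled points were called at an adjusted p under 0.05. In the comparison with control, 15 are called for LPS+RCMNs, all to the right of 0, with Hmox1 at 2.05 and Gsr at 1.39 near the top.

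The wider thioredoxin system, 25 further genes, was tested in full. In LPS versus control 17 were called higher and 4 lower (median 0.96), where 31.4% of all genes were higher and 32.1% lower. With the length trend removed 11 were higher and 4 lower (median 0.29), where 23.7% of all genes were higher and 22.0% lower. The 4 were not the same, as Sepsecs (-0.02) was no longer called lower and Glrx2 was. Glrx2 was called higher at 0.35 (adjusted p = 0.0109) in scaled counts and lower at -0.56 (adjusted p = 0.00197) with the length trend removed. With length and level removed 9 were higher and 5 lower (median 0.23), where 42.7% of all genes were called in either direction. Glrx, a glutaredoxin, rose by 2.18 ± 0.16 (adjusted p = 6.33e-06) and Prdx5, a peroxiredoxin, by 2.05 ± 0.10 (adjusted p = 8.83e-07), or by 1.49 and 1.31 with the length trend removed. Map3k5, a stress kinase held inactive by reduced thioredoxin, fell by 1.11 ± 0.10 (adjusted p = 1.74e-05), or 0.44 with the length trend removed (adjusted p = 0.0103). Txnip, which binds and inhibits thioredoxin, fell by 1.03 ± 0.22 (adjusted p = 0.00251). Its CPM was 766, 475 and 466 in the controls, 269.9 and 289 with LPS, and 330.1, 417 and 351 with LPS+RCMNs.

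Of the 25 genes, LPS+RCMNs against LPS gave 4 called higher and 14 lower (median -0.45), where 29.8% of all genes were higher and 29.5% lower. The counts were 4 and 8 with the length trend removed (median -0.11), where 19.0% of all genes were higher and 21.5% lower. Glrx2 changed sides between these fits, from called lower (-0.32, adjusted p = 0.018) to called higher (0.52, adjusted p = 0.00334). With length and level removed the counts were 5 and 5 (median -0.02), where 38.7% of all genes were called in either direction. Against control 6 were called higher and the other 19 were not, with a median of 0.08, where 4.33% of all genes were called higher. Prdx5 was 1.27 ± 0.09 higher (adjusted p = 8.1e-05), with 96.6, 100.4 and 101 CPM in the controls and 257, 222 and 239.6 CPM with LPS+RCMNs. Srxn1, which repairs over-oxidised peroxiredoxins and is also among the Nrf2 targets, was 1.10 ± 0.23 higher (adjusted p = 0.0235). Its CPM was 40.1, 71.8 and 68.9 in the controls, 193 and 161 with LPS, and 151, 96.8 and 139 with LPS+RCMNs.

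Genes with the most similar pattern were found by the Pearson correlation of log2 CPM over the 8 libraries, among 7959 genes with a mean of at least 5 FPKM (7960 for Nqo1, which is itself below that level). Libraries of a group share their treatment and the LPS libraries their length trend, so a high correlation mostly restates the group pattern. Nfe2l2 was most like Zfp512b (r = 0.992), Lpar6 (0.986) and Tec (0.985). Txn1 was most like Hspe1 (0.999), Uqcrb (0.999) and Cox7c (0.998), and Txnrd1 like Pdss1 (0.989), Sdf2l1 (0.988) and Dnajc25 (0.983). For Nqo1 the closest were Ssr1 (0.914), Ifngr2 (0.904) and Map4k5 (0.894), which at its few counts is no finding. Among the 10 genes themselves, Txn1 and Txn2 varied together (r = 0.98, n = 8), Bach1 varied opposite to Txn1 (r = -0.96), and Por was closest to Txnrd1 (r = 0.85).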

How the data were processed

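The deposited table gives, per gene and library, the estimated counts (expected counts, not normalized) and FPKM values that the authors computed. Per the submitters' processing notes the build was mm10, and per the series' design text reads were checked with FastQC. Aligner, counter, annotation and strand setting: not given in the sources used here. Of the counts, 77.8% were not whole (tolerance 0.001), and they were rounded. The 4 per-sample columns that match no sample were not used. Genes passing filterByExpr were tested with edgeR 4.0.16 (R 4.3.3; TMM, quasi-likelihood, all 8 libraries in 3 groups, Benjamini-Hochberg, threshold 0.05), checked on simulated data. Residual df was 5, prior df 4.15, and the common biological variation 14.5%. Alternatives included DESeq2 1.42.0, limma 3.58.1 on log2(FPKM + 1), a fold minimum of log2 1, and loess trends on length (span 0.4). Gene length was implied by count and FPKM. Of gene IDs, 99.7% matched RefSeq GRCm38.p6. Genes of each list were named by size of fold among those called with a mean of at least 5 FPKM, 2 per direction. Members and lists were chosen with earlier results of these data known.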

Additional observations from a re-analysis of the deposited data

How the results depend on the processing

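Each comparison was repeated under 20 alternatives. Bach1 and Txn1 kept their direction and call in LPS versus control in all 20 (-1.58 to -0.56 and 0.48 to 1.85), as did Txn1 and Txn2 in LPS+RCMNs versus LPS (-1.71 to -0.43 and -1.31 to -0.27) and Por in LPS+RCMNs versus control. With a fold minimum, the genes called were 3619, 3162 and 314 for LPS versus control, LPS+RCMNs versus LPS and LPS+RCMNs versus control. In the first Txn1 and Txn2 were higher and Bach1 lower. In the second Bach1 was higher and Txn1 and Txn2 lower, and in the third Por was higher. With length and level removed, 4606 genes were called in LPS+RCMNs versus LPS, with 2 of the 10 higher and 3 lower. In LPS versus control 2 of the 10 were then higher and 2 lower. limma on FPKM called 2 of the 10 higher and 4 lower in LPS versus control. In LPS+RCMNs versus LPS it called 5 higher, and Txn1 and Txn2 lower. It moved the median of all genes to -0.33, 0.27 and -0.07 in the 3 comparisons. Of its calls 26.3%, 72.0% and 41.9% were higher, against 49.5%, 50.3% and 57.3% by edgeR. DESeq2 called 2 of the 10 higher in LPS+RCMNs versus control. Without the 2 libraries that stood apart that comparison called 3017 genes, and 2 of the 10.

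Leaving out each library gave 6002 to 7930, 5613 to 7685 and 322 to 1372 genes called in the 3 comparisons, the last 322 without LPS+RCMNs replicate 3 and 1372 without replicate 2. Members lower in LPS versus control numbered 1 to 3, members higher in LPS+RCMNs versus LPS 1 to 4, and in LPS+RCMNs versus control 1 to 2. The correlation of same-numbered deviations from group means was -0.34 to 0.20. With so few libraries per group such deviations mirror one another, so these values cannot settle whether replicate numbers pair the samples. With the replicate block 454 genes were called in LPS+RCMNs versus control, and in LPS+RCMNs versus LPS 1 of the 10 was higher and 3 lower.

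Among the 10 genes, reversals concerned those not called in the comparison itself. Keap1 in LPS versus control was 0.02, 0.01 and 0.06 without control replicate 1, control replicate 2 and LPS replicate 2, 0.02 without both libraries that stood apart, 0.13 with length and 0.07 with length and level removed; in LPS+RCMNs versus LPS it was -0.06 and -0.03 with those removed, and in LPS+RCMNs versus control -0.01 by limma. Mafg was 0.37 (called) and 0.28 in LPS versus control and -0.26 and -0.25 in LPS+RCMNs versus LPS with length, and length and level, removed, and -0.01 in LPS+RCMNs versus control without control replicate 1 (up to 0.18 without LPS+RCMNs replicate 2). Txn2 in LPS+RCMNs versus control was -0.03, -0.04 and -0.05 with length, length and level removed, and by limma. Txnrd1 in LPS+RCMNs versus LPS was 0.26 by limma. The log2 ratio of Nfe2l2 to Bach1 moved to 3.43 with LPS and from 3.19 to 3.34 with LPS+RCMNs once length was removed, and Txnrd1 to Txnrd2 from 2.87 to 3.26 with LPS. The cause of these changes was not tested. The LPS group has 2 libraries, and a fit that leaves either out assumes the other varies like the rest. Depth limited Nqo1 only among the 10.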

Other observations

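Reductases that neighbour Nqo1 and Por in function, and the electron partners of Por, were read from the same fit. Of 17 listed, 16 were tested. In LPS versus control 8 were called higher, 1 lower and 7 not, 9 of 16 where 63.4% of all genes were called. With the length trend removed 3 were higher and 1 lower, where 23.7% of all genes were higher and 22.0% lower. With length and level removed 1 was higher and 3 lower, where 42.7% of all genes were called in either direction. In FPKM, where 67.5% of all genes were called, 2 were higher and 7 lower, so the balance of directions depends on the scaling. Hmox1 was 1.61 ± 0.46 higher on the log2 scale (adjusted p = 0.0132), but 1.09 and not called with the length trend removed (adjusted p = 0.0773). Cyb5a, cytochrome b5, was 1.04 ± 0.12 higher (adjusted p = 7.51e-05), with -0.12 and no call for Cyb5a once the length trend was removed (adjusted p = 0.477). Ndor1, a cytosolic diflavin reductase, was -0.86 ± 0.30 (adjusted p = 0.0295), and -0.29 with no call with the length trend removed (adjusted p = 0.395).

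With LPS+RCMNs 4 of the 16 were called higher than in control and the other 12 were not, with a median of 0.12, where 4.33% of all genes were called higher. The number called was 1 without control replicate 3, LPS replicate 1, LPS replicate 2 or LPS+RCMNs replicate 3, 2 without control replicate 2 and 6 without control replicate 1. Without LPS+RCMNs replicate 1 edgeR called 0, with 4 at an unadjusted p under 0.05. DESeq2 called 4 and limma on FPKM 1. With 1 library left out, calls over all genes in this comparison ranged from 322 without LPS+RCMNs replicate 3 to 1372 without replicate 2. Cyb5a, which passes electrons beside Por to microsomal enzymes, had 23.1, 21.5 and 21.9 CPM in the controls, 46.6 and 44.7 CPM with LPS, and 36.3, 29.7 and 38.3 CPM with LPS+RCMNs. The groups did not overlap, and LPS+RCMNs versus control was 0.65 ± 0.11 (adjusted p = 0.00982). Between LPS+RCMNs and LPS 4 of the 16 were called lower and 12 were not, where 29.5% of all genes were called lower. The counts were 2 higher and 2 lower with the length trend removed (median 0.15), where 19.0% of all genes were higher and 21.5% lower. Cyb5a changed sides between these fits, from called lower (-0.39, adjusted p = 0.02) to called higher (0.68, adjusted p = 0.00348). With length and level removed the counts were 3 and 2, where 38.7% of all genes were called in either direction. In FPKM, where calls over all genes leaned higher, they were 6 and 1.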
